A study of Rattus norvegicus with 6 samples.

Results

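The interleukin-1 family and its receptors were followed here as 9 genes, chosen by symbol: the ligands Il1a, Il1b, Il18 and Il33, the receptor antagonist Il1rn, and the receptor chains Il1r1, Il1r2, Il1rap and Il1rl1. Of these 9 genes, 8 had a probe set with that symbol, out of 15037 named genes measured in all. Each of the 8 was read by 1 probe set. Il1r1, the receptor that carries the interleukin-1 signal, had no probe set of that name and was not analysed here.

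The cells were tracheal basal cells, the stem cells of the airway lining, from Sprague Dawley rats (wild-type males, 12 weeks old), the source of both groups. There were 3 lines, each pooled from 3 rats. Every line was divided on isolation between BEGM (bronchial epithelial growth medium) and EpiX (also a medium for epithelial cells), and RNA was taken after 8 days. Each culture gave 1 microarray, so there were 3 arrays for each medium, called here by the sample numbers 1, 2 and 3 of the source names. The titles differ from these: they number both arrays 2 as 3, and give both arrays 3 no replicate number. The cultures were bulk samples, in which fewer cells of a type and less RNA per cell cannot be told apart.

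Interleukin-1 alpha (Il1a) and interleukin-1 beta (Il1b) are the agonists of the family. They bind Il1r1, which then recruits the accessory chain Il1rap and signals through Myd88 and the Irak kinases to NF-kappaB. The antagonist Il1rn occupies Il1r1 without signalling, and Il1r2 is a decoy receptor that binds the agonists but has no signalling domain. Interleukin-33 (Il33) uses the receptor Il1rl1, also called ST2, together with Il1rap, and a soluble form of Il1rl1 acts as its decoy. Interleukin-18 (Il18) has a receptor of its own and is neutralised by Il18bp. In epithelium, Il1a and Il33 are stored as ready-made proteins and released on damage, so that they act as alarm signals.

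The values are the authors' deposited signals on a log2 scale, and a fold below assumes that base. With 3 arrays for each medium, their number limits the precision. Across genes, which are not independent replicates, BEGM array 1 correlated more closely with the mean of the EpiX arrays (r = 0.986) than BEGM arrays 2 (r = 0.970) and 3 (r = 0.960) did, and its omission is given where it changes a call of a member. Of 7 basal cell genes measured, 3 were higher in EpiX (Tp63 by 2.15, Krt15 by 4.12 and Bcam by 3.11 on the log2 scale), Pdpn fell by 2.96 and 3 did not pass the limma test described below. Krt14 lay between 16.38 and 17.13 and Tp63 between 12.23 and 14.80 on the 6 arrays, Ngfr was dim at 4.69 to 5.37, and Krt5 had no named probe set. The mean level over 13 measured leukocyte genes was 5.16 to 5.34 in BEGM and 5.37 to 5.50 in EpiX. The list was not uniform. The pan-leukocyte gene Ptprc lay between 3.78 and 4.14 on the 6 arrays, but Cd14 between 10.95 and 12.00 and Cd68 between 8.65 and 11.36. The mean over 10 fibroblast genes was 6.53, 7.26 and 9.93 for BEGM arrays 1 to 3, against 5.46 to 5.87 in EpiX. The 23 background probe sets, which differ in GC content, ran from 3.12 to 6.99, with medians of 5.77 to 6.13. The GC content of the gene probes was not used here.

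Among the 8 genes measured, 2 were lower in EpiX than in BEGM, the alarm cytokine Il1a and the interleukin-33 receptor Il1rl1, 0 were higher and 6 did not pass the test. A gene passed when limma's Benjamini-Hochberg (BH) adjusted p over all 15037 genes was under 0.05. By that rule 5.78% of all genes were called, 3.15% lower and 2.63% higher in EpiX (474 and 395 genes, or 409 and 560 after median centring of the arrays, which moved the median of all differences from 0.0022 to 0.13). At an unadjusted p under 0.05, 3 members were lower and 0 higher, beside 11.4% and 11.0% of all genes. The values of the media did not overlap for 3 of the 8, Il1a, Il33 and Il1rl1, all lower in EpiX, while 28.0% of all genes had no overlap, 14.5% being lower and 13.5% higher. The median difference of the 8 genes was -0.14, beside 0.0022 over all genes. The directions of all 8 genes were the same with quantile normalization and with median centring.

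**Figure D1:**
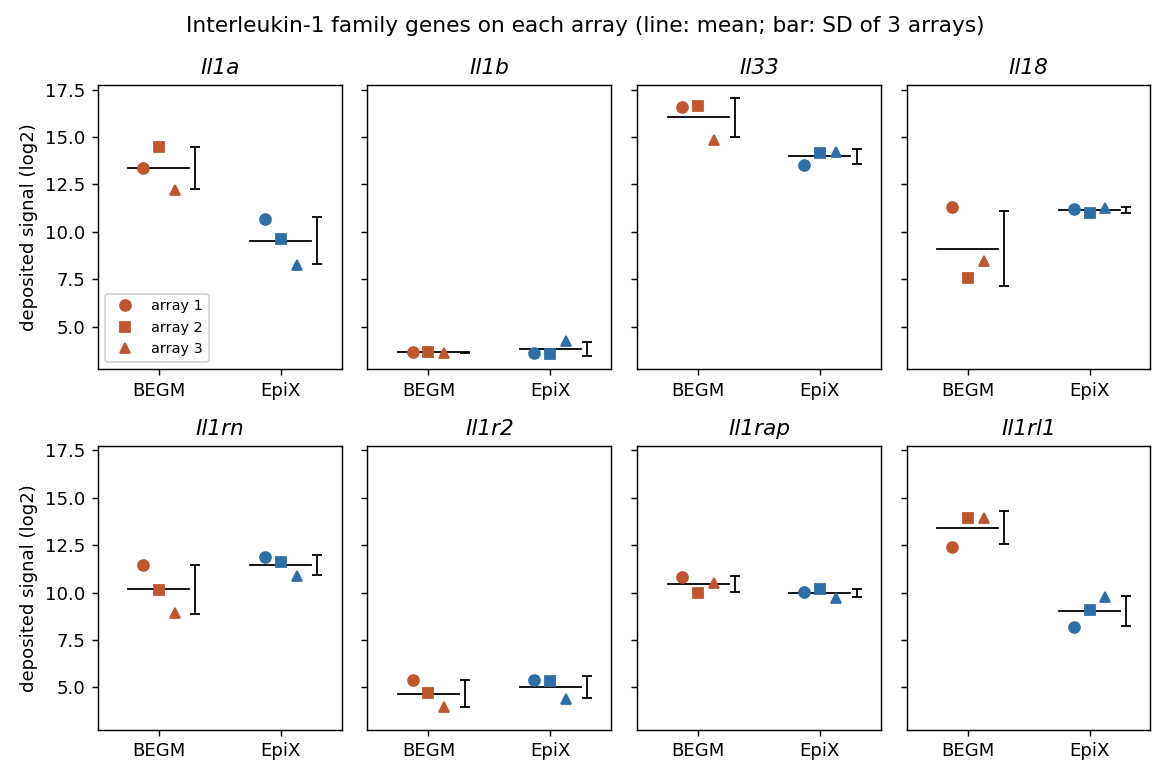
Deposited log2 signal (vertical axis) of the 8 measured genes on each array, by medium (horizontal axis), with the mean as a line, the SD of 3 arrays as a bar and a symbol for each sample number. Il1a, Il33 and Il1rl1 have no overlap between the media, BEGM array 1 stands with the EpiX arrays for Il18, and Il1b lies below 4.5 on every array.

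Of the agonists, Il1a read 13.40, 14.47 and 12.23 in BEGM (arrays 1 to 3, in that order here and below), against 10.70, 9.65 and 8.25 in EpiX. All 3 BEGM values lay above the EpiX values, and array 3 was the lowest in each medium. Il1a fell by 3.83 on the log2 scale (SE 0.74, n = 3 per medium; 95% interval -5.58 to -2.09; adjusted p = 0.0321), a 14.3-fold change, and it ranked 69th among all genes by size of fall. Within same-numbered arrays the differences were -2.70, -4.83 and -3.98. The call rested on most of the arrays: omitting BEGM array 2 gave an adjusted p of 0.12, and omitting EpiX array 1, 2 or 3 gave 0.0558, 0.133 or 0.0713. With the 2 arrays numbered 2 omitted it was 0.397. The difference itself ran from -4.42 to -3.19 when arrays were left out.

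Il1b, the inducible agonist made mainly by myeloid cells, was at 3.67, 3.64 and 3.60 in BEGM and at 3.63, 3.58 and 4.24 in EpiX. It was among the dimmest 25% of genes, whose mean over the arrays was under 4.50. It lay below the median of the background probe sets on all 6 arrays, within their range. Its difference of 0.18 (SE 0.20; 95% interval -0.30 to 0.65; adjusted p = 0.668) rested on EpiX array 3 and was -0.0307 without it.

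Il33 was bright on every array, at 16.61, 16.67 and 14.86 in BEGM and at 13.55, 14.18 and 14.21 in EpiX. The groups did not overlap, but the difference between the arrays numbered 3 was only -0.65. The difference was -2.07 (SE 0.49; 95% interval -3.23 to -0.90) and did not pass (adjusted p = 0.0602). Il33 was called without BEGM array 3, at -2.66 (adjusted p = 0.00792), and also with the 2 arrays numbered 3 omitted, at -2.77 (adjusted p = 0.0194). BEGM array 3, with the lowest Il33 of its medium, had the highest mean level of fibroblast genes. Endothelium is another usual source of Il33. Of 8 endothelial genes, 4 were among the dimmest 25%, and the mean level of the 8 was 4.78 to 4.93 in BEGM and 4.37 to 4.54 in EpiX. Among them Esam was at 6.87, 8.44 and 7.57 in BEGM and 5.87 to 6.33 in EpiX. It differed by -1.51 (adjusted p = 0.0685) and was called lower without BEGM array 1 (adjusted p = 0.00775). Which cells gave the Il33 signal was not tested.

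Il18 read 11.32, 7.55 and 8.49 in BEGM, against 11.22, 10.98 and 11.26 in EpiX. The EpiX arrays lay close together (SD 0.15), while BEGM array 1 was above all of them and the other BEGM arrays well below (SD 1.96). The difference of 2.03 (SE 0.87; 95% interval -0.02 to 4.09) did not pass (adjusted p = 0.228). Without BEGM array 1 it was 3.14 and was called (adjusted p = 0.00129), and with the 2 arrays numbered 1 omitted it was 3.10 (adjusted p = 0.00625).

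Of the inhibitors, the antagonist Il1rn was at 11.48, 10.12 and 8.91 in BEGM and at 11.91, 11.61 and 10.86 in EpiX. BEGM array 1 overlapped the EpiX values and the other BEGM arrays did not. EpiX was higher in all 3 same-numbered pairs, by 0.43, 1.50 and 1.95. The difference of 1.29 (SE 0.62; 95% interval -0.18 to 2.76) did not pass (adjusted p = 0.283). It was 1.95 without BEGM array 1, where it was called (adjusted p = 0.0281), and 0.66 without BEGM array 3.

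BEGM array 1, which was nearest to EpiX for Il18 and Il1rn, was also nearest over genes of squamous and hillock epithelium. The mean level of 9 such genes was 11.69 on that array, 9.73 and 9.53 on the other BEGM arrays, and 12.13 to 12.36 in EpiX. Of the 9, 1 was called higher in EpiX with all arrays and 7 without BEGM array 1. In the same fits 2.63% and 6.57% of all genes were called higher. The part of this difference in the values of Il18 and Il1rn was not tested.

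The decoy receptor Il1r2 lay below the median of the background probe sets on all 6 arrays, at 5.37, 4.69 and 3.96 in BEGM and at 5.37, 5.35 and 4.37 in EpiX. Arrays 3 were the lowest in both media and the groups overlapped. Its difference of 0.36 (SE 0.41; 95% interval -0.63 to 1.34) did not pass (adjusted p = 0.681).

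Of the signalling chains, the shared accessory chain Il1rap was at 10.82, 10.00 and 10.50 in BEGM and at 10.01, 10.17 and 9.74 in EpiX. The groups overlapped, and the difference of -0.47 (SE 0.24; 95% interval -1.03 to 0.10) did not pass (adjusted p = 0.307).

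Il1rl1 showed the widest separation of the 8 genes. It was at 12.41, 13.95 and 13.91 in BEGM and at 8.20, 9.11 and 9.76 in EpiX, so that the lowest BEGM array stood well above the highest EpiX array. It fell by 4.40 on the log2 scale (SE 0.53; 95% interval -5.65 to -3.15; adjusted p = 0.00855), a 21.1-fold change, and ranked 46th among all genes by size of fall. The same-numbered differences were close to each other, at -4.21, -4.84 and -4.15. The call ended when BEGM array 2 (adjusted p = 0.0505), EpiX array 2 (adjusted p = 0.0594) or the pair of them (adjusted p = 0.272) was omitted, while the difference stayed between -4.91 and -3.99 over all omissions. The platform lists 2 transcripts under this probe set, so the membrane receptor and the soluble decoy were not told apart. Mast cells are among the cells that carry the receptor. The mean level of 6 mast cell genes was 4.11 to 4.19 in BEGM and 3.91 to 4.17 in EpiX, and 4 of the 6 were among the dimmest 25%. Which cells gave the Il1rl1 signal was not tested.

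**Figure D2:**
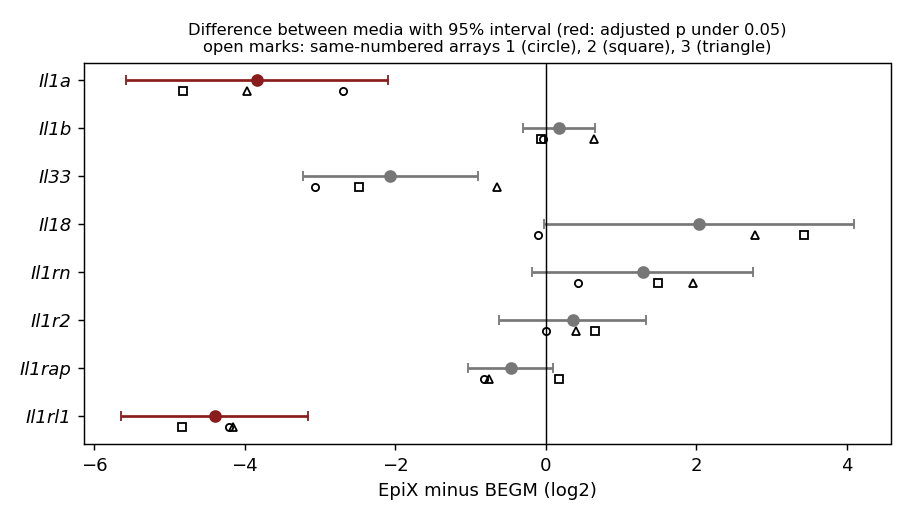
Difference between the media (horizontal axis, EpiX minus BEGM, log2) for the 8 genes with the 95% interval of limma, red where the adjusted p was under 0.05, and the difference of each pair of same-numbered arrays as open marks. Il1a and Il1rl1 are the genes called, at -3.83 and -4.40, and all 3 pairs lie below 0 for Il1a, Il33 and Il1rl1.

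The sequences before the transcription start were taken for the members that fell, Il1a and Il1rl1, and for the antagonist Il1rn, whose difference had the opposite sign. RefSeq windows (build GRCr8) were at hand for 8 of the 9 genes, and the 150 bases just before the annotated start are printed 5′ to 3′ on the strand of the gene. Capitals mark a TATAAA box or the AP-1 motif TGANTCA, searched on both strands. The windows are chr3:136990018-136990167 (minus strand) for Il1a, chr9:50203488-50203637 (plus strand) for Il1rl1 and chr3:27520172-27520321 (plus strand) for Il1rn.
Il1a: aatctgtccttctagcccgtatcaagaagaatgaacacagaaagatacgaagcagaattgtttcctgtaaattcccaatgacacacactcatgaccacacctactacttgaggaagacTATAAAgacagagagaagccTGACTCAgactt
Il1rl1: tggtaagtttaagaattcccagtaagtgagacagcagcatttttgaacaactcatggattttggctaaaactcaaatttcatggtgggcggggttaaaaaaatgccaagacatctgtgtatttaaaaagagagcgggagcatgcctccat
Il1rn: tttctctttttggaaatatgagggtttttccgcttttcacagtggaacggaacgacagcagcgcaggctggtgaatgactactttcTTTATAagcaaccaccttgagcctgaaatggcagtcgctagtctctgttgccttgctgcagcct

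The window of Il1a held TATAAA 27 to 32 bases before the start and the AP-1 motif 6 to 12 bases before it. TGANTCA was found in 3.69% and TATAAA in 8.00% of the 33469 windows of this length. In the window of Il1rn, TATAAA stood on the opposite strand, 59 to 64 bases before the start, and the window of Il1rl1 held neither motif. The NF-kappaB consensus, present in 2.01% of all windows, was in none of the 3 windows printed. Among the member windows not printed, it was in a window of Il1r1 and in a window of Il1rap. TATAAA was also in unprinted windows, on the strand of the gene. It stood 24 to 29 bases before the start in a window of Il33, and 55 to 60 bases before it in that of Il1b. These matches describe the letters of the windows, each taken before 1 annotated start, and bear on no binding.

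The agonists were then set against their inhibitors as differences between 2 genes on the same array, compared between the media. Such a difference shows unequal change and not which gene was more abundant. Il1a minus Il1rn was 1.92, 4.36 and 3.31 in BEGM, against -1.21, -1.97 and -2.61 in EpiX, and the groups did not overlap. The shift was -5.12, larger than the fall of Il1a alone, since the 2 genes differed in opposite directions. Il1a minus the decoy Il1r2 was 8.03, 9.78 and 8.27 in BEGM and 5.33, 4.30 and 3.89 in EpiX, a shift of -4.19 with no overlap. Il1r2 and Il1b were within the range of the background probe sets on every array, so this difference sets Il1a against a signal at background, and the next ones rest on such signals too. The differences for Il1b shifted by -1.11 against Il1rn and by -0.18 against Il1r2, with overlapping groups. The former was -0.50 without BEGM array 3 and -1.75 without BEGM array 1, and the latter took the opposite sign without BEGM array 3 (0.16), EpiX array 1 (0.0865), EpiX array 2 (0.10) or the 2 arrays numbered 2 (0.0932).

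For interleukin-33 the ligand was set against its receptor, and both genes had lower means in EpiX. Il33 minus its receptor Il1rl1 was 4.20, 2.72 and 0.95 in BEGM and 5.34, 5.07 and 4.45 in EpiX, a shift of 2.33 with no overlap, so the receptor differed more between the media than the ligand. This shift was 1.50 without BEGM array 3 and 3.12 without BEGM array 1. Il18 minus its binding protein Il18bp was 6.61, 3.27 and 3.71 in BEGM and 6.03, 6.45 and 5.90 in EpiX, a shift of 1.60 with overlapping groups. Il18bp lay within the range of the background probe sets on every array. Without BEGM array 1 this shift was 2.64 with no overlap (exact permutation p = 0.1, 2-sided, the smallest that 2 against 3 arrays allow). It was 0.97 without BEGM array 2, and 2.68 or 0.81 with the pair numbered 1 or 2 omitted. In exact permutation tests over the 6 arrays (2-sided, 6 differences compared), p was 0.1 for Il1a against Il1rn, Il1a against Il1r2 and Il33 against Il1rl1, which is the smallest value that 3 against 3 arrays allow, and 0.2 after BH adjustment. It was 0.2 for Il1b against Il1rn, 0.8 for Il1b against Il1r2 and 0.4 for Il18 against Il18bp (0.3, 0.8 and 0.48 adjusted). These tests took the arrays as unpaired. In exact sign-flip tests over same-numbered pairs, p was 0.25 for both differences of Il1a, Il1b against Il1rn and Il33 against Il1rl1. That is the smallest value 3 pairs allow. It was 0.75 for Il1b against Il1r2 and 0.5 for Il18 against Il18bp.

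**Figure D3:**
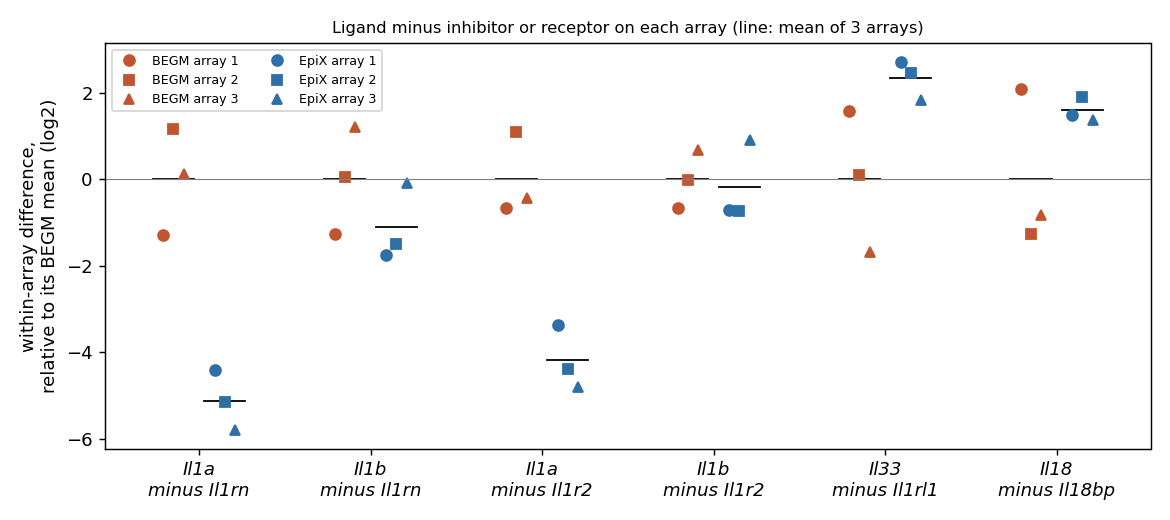
Within-array difference of 2 genes (log2, vertical axis) relative to its mean over the BEGM arrays, for the 6 pairs of genes (horizontal axis), with a symbol for each array and lines at the means of 3 arrays. Il1a minus Il1rn and Il1a minus Il1r2 lie lower on all 3 EpiX arrays, by 5.12 and 4.19 on average, and Il33 minus Il1rl1 lies higher by 2.33.

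Among the other ligands and receptors of the family, 1 of 11 measured genes fell, 0 rose and 10 did not pass, with a median difference of 0.12 (0.0022 over all genes). The shares of all genes called were 3.15% lower and 2.63% higher. The gene that fell was Il18r1, the ligand-binding chain of the interleukin-18 receptor, at 8.29, 8.40 and 7.92 in BEGM and 7.33, 6.85 and 6.72 in EpiX (-1.24, SE 0.22; adjusted p = 0.0242). On 2 EpiX arrays Il18r1 was within the range of the background probe sets. Il18r1 and Il1rl1 are neighbours on chromosome 9, in the row of coding genes Il1r1, Il1rl2, Il1rl1, Il18r1 and Il18rap. Il1rl2, the interleukin-36 receptor on the other side of Il1rl1, differed by -0.11 (SE 0.46; 95% interval -1.20 to 0.97; adjusted p = 0.922). The interleukin-36 agonists Il36a, Il36b and Il36g did not pass, and the largest of their differences was that of Il36b at 1.08 (SE 0.68; adjusted p = 0.416). Il36a and Il36g were within the range of the background probe sets on all 6 arrays. Il36b was within it on all 3 BEGM arrays and 2 EpiX arrays. The call of Il18r1 ended without BEGM array 2 (adjusted p = 0.102), EpiX array 2 (0.122) or EpiX array 3 (0.0713), and when the pair numbered 2 (0.384) or 3 (0.0671) was omitted.

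Of 14 measured genes of processing and release, 0 were called by limma, 2 were higher at an unadjusted p under 0.05 (Casp1 and Txnip, beside 11.0% of all genes) and 0 lower. The largest differences were those of the inflammatory caspase Casp4, at 1.44 (SE 0.68; adjusted p = 0.269), and of Txnip, a regulator of the NLRP3 inflammasome, at 0.73 (SE 0.20; adjusted p = 0.0825). Txnip was called after median centring (0.85, adjusted p = 0.0402). The calpain Capn1 was bright in both media and Casp1, which cleaves pro-Il1b and pro-Il18, was within the background range, at 4.45 to 5.03 in BEGM and 5.27 to 5.38 in EpiX. The median difference of the 14 genes was 0.16.

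In receptor signalling, 1 of 24 measured genes rose, 2 fell and 21 did not pass, with a median difference of 0.20. Over all genes, 2.63% were called higher and 3.15% lower. The media did not overlap for 11 of the 24, 7 higher and 4 lower in EpiX, beside 13.5% and 14.5% of all genes. Irak3, a kinase-like protein that blocks release of the active Irak kinases from the receptor complex, was at 7.96, 7.24 and 8.18 in BEGM and at 10.93, 10.75 and 9.65 in EpiX. The groups did not overlap, and Irak3 rose by 2.65 (SE 0.39; adjusted p = 0.0149), a 6.27-fold change. Its active relatives Irak1, Irak2 and Irak4 differed by 0.20, 0.20 and -0.27 and did not pass (adjusted p = 0.608, 0.569 and 0.468), and the adaptor Myd88 differed by 0.43 (adjusted p = 0.352).

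The NF-kappaB subunit Rela was at 14.15, 14.45 and 14.46 in BEGM and at 13.63, 13.61 and 13.57 in EpiX, and fell by 0.75 (SE 0.14; adjusted p = 0.0321). Peli1, a ubiquitin ligase of the Irak complex, fell by 1.15 (SE 0.25; adjusted p = 0.0471). This call ended with the sample number as a block (adjusted p = 0.0508) and with median centring (0.0573), and Peli1 was not called in any of the fits that left arrays out. That of Irak3 ended without BEGM array 2 (0.0712), EpiX array 1 (0.0623), EpiX array 2 (0.084) or the pair numbered 2 (0.312). That of Rela ended in each such fit except where BEGM array 1 or the pair numbered 1 was omitted.

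Of genes known to be induced by interleukin-1, 6 of 29 measured fell, 2 rose and 21 did not pass, with a median difference of -0.97 (0.0022 over all genes). Of all genes, 3.15% were called lower and 2.63% higher. The values of the media did not overlap for 16 of the 29, 13 lower and 3 higher in EpiX, beside 14.5% and 13.5% of all genes. Many of these genes also answer to other signals, and Ccl2 had the largest measured difference among them. This monocyte chemokine was at 14.50, 16.79 and 16.91 in BEGM and 5.45, 5.98 and 6.74 in EpiX (-10.01, SE 0.67; adjusted p = 0.00168). All 3 EpiX values lay within the range of the background probe sets. With each EpiX value raised to the highest background probe set of its array, the mean of Ccl2 was still 9.08 lower in EpiX on the log2 scale. The related monocyte chemokine Ccl7 was at 7.57, 11.56 and 11.95 in BEGM and 4.57 to 4.75 in EpiX (-5.67, SE 1.07; adjusted p = 0.0311), with BEGM array 1 again the lowest of its medium. With its EpiX values raised in the same way, the mean of Ccl7 was 3.37 lower in EpiX. Its value on BEGM array 1 was close to the highest background probe set of that array, at 6.99.

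The neutrophil chemokine Cxcl1 fell by 1.60 (SE 0.30; adjusted p = 0.0303), and the growth factor Csf2 fell by 1.24 (SE 0.17; adjusted p = 0.0125). Of the matrix metalloproteinases, Mmp3 fell by 3.28 (SE 0.70; adjusted p = 0.0441) and Mmp9 fell by 1.56 (SE 0.30; adjusted p = 0.0321). The call of Mmp3 ended with a trended and robust variance (adjusted p = 0.0538), and Mmp3 was within the range of the background probe sets on 2 EpiX arrays. Csf2 and Mmp9 were within the range of the background probe sets on all 6 arrays, so their values are differences in signal and give no fold. The genes that rose were Ptges, which makes prostaglandin E2, by 1.80 (SE 0.28; adjusted p = 0.0166), and the metalloreductase Steap4, by 1.90 (SE 0.30; adjusted p = 0.0181). Steap4 was within the background range on all 3 BEGM arrays and 1 EpiX array. Ptges was at 11.17, 12.02 and 11.00 in BEGM and 13.01, 13.36 and 13.23 in EpiX, whereas Ptgs2, the enzyme before it in the pathway, was bright throughout and differed by -0.29 (SE 0.26; adjusted p = 0.569). The inhibitor of NF-kappaB Nfkbia differed by 0.71 (SE 0.22; adjusted p = 0.117).

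The number of induced genes that fell was 11 with the sample number as a block and 10 without BEGM array 1, settings in which 4.39% and 7.32% of all genes were called lower (3.94% and 6.57% higher). It was 1 without BEGM array 2, EpiX array 1 or EpiX array 2, and 3 with the pair numbered 3 omitted. With the pair numbered 2 omitted it was 0 by limma, where 1582 genes of all had an unadjusted p under 0.05. Of the 12 pathway genes called in all, 11, 2 and 7 kept the call when BEGM array 1, 2 or 3 was omitted, and 2, 1 and 5 when EpiX array 1, 2 or 3 was. Fibroblasts also make several of these chemokines and metalloproteinases. Of 10 fibroblast genes, brightest on BEGM array 3, 0 passed by limma. At an unadjusted p under 0.05, 6 of them were lower in EpiX, beside 11.4% of all genes. Without BEGM array 1, 6 of the 10 passed, all lower in EpiX (7.32% of all genes), and with the sample number as a block 3 did (4.39%). Their part in the induced genes was not tested.

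**Figure D4:**
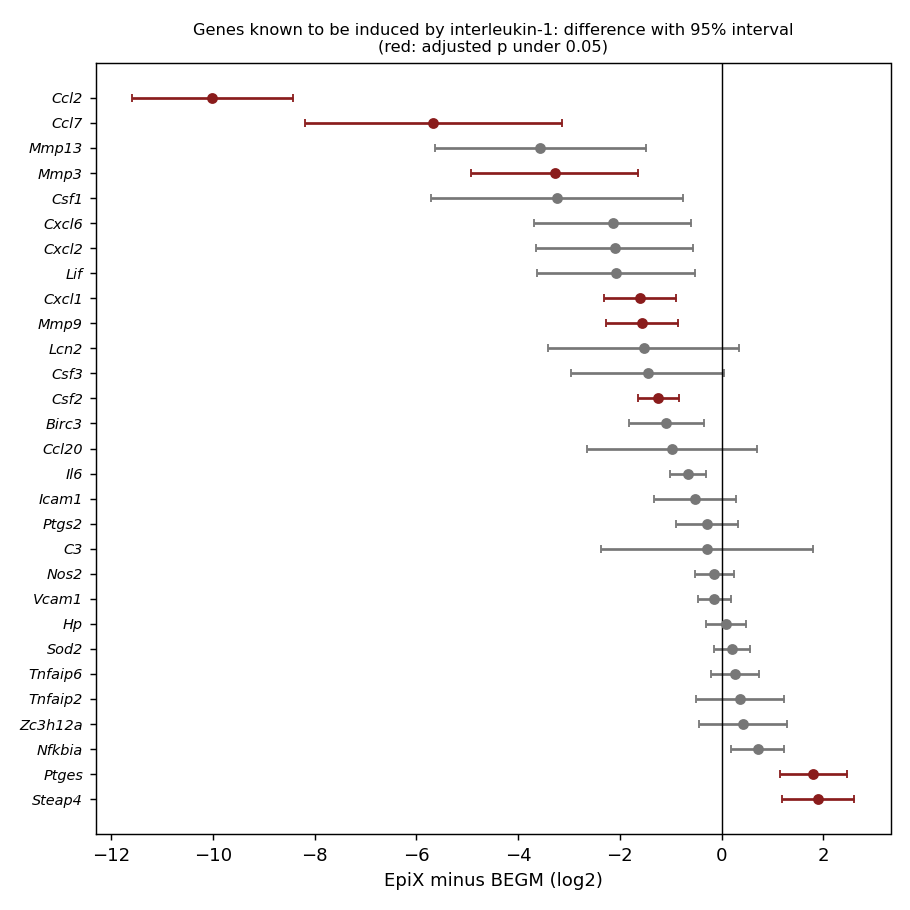
Difference between the media (horizontal axis, EpiX minus BEGM, log2) with the 95% interval of limma for the 29 measured genes known to be induced by interleukin-1 (vertical axis), red where the adjusted p was under 0.05. Ccl2, at -10.01, lies far from the rest, 6 genes are called lower, and Ptges and Steap4 are called higher.

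The genes most like the 3 members with the largest differences were sought among 2790 named genes with an SD of at least 0.5 over the 6 arrays, by Pearson's r over these arrays. This likeness is dominated by the medium, which all such pairs share, and is given as a description. Nearest to Il1rl1 were Phlda1 (r = 0.9985), Fxyd5 (0.9980) and Mmp14 (0.9956), each of which also fell in the fit to all 6 arrays, with Fxyd5 at 11.97, 13.61 and 13.66 in BEGM and 5.63, 6.96 and 7.53 in EpiX. On EpiX arrays 1 and 2, Fxyd5 was within the range of the background probe sets. Nearest to Il1a were Npdc1 (0.9910), Prss22 (0.9902) and Tns1 (0.9866). The epithelial serine protease Prss22 shared the order of Il1a over the arrays, at 12.50, 13.26 and 11.72 in BEGM and 10.57, 9.03 and 8.59 in EpiX. Nearest to Il33 were Gmfg (0.9846), Sec14l4 (0.9843) and Igsf9 (0.9818), which were, like Il33, lowest on array 3 within BEGM.

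The spread within a medium differed between members. In BEGM, the SD over the 3 arrays was 1.12 for Il1a, 1.28 for Il1rn, 1.96 for Il18, 1.03 for Il33, 0.88 for Il1rl1, 0.70 for Il1r2, 0.42 for Il1rap and 0.036 for Il1b, beside a median of 0.24 over all genes. In EpiX it was 1.23 for Il1a, 0.54 for Il1rn, 0.15 for Il18, 0.37 for Il33, 0.78 for Il1rl1, 0.57 for Il1r2, 0.22 for Il1rap and 0.36 for Il1b, beside a median of 0.18. Il18 thus had the widest spread of the 8 genes in BEGM and the narrowest in EpiX, while Il1a varied in both media.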

How the data were processed

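Per the labels, RNA was labelled with biotin and run on Affymetrix arrays. Transcriptome Analysis Console is named, without role or version, by the submitters' processing notes. The deposited table gives log2 signals of 24834 probe sets, from 2.62 to 18.66. How these were normalized and centred, and the log base, is not given in the sources used here, and log2 was inferred from the range. Gene symbols came from the platform's annotation, some of it possibly old (15049 probe sets with 1 symbol, 0 with several). The brightest probe set per gene was kept.

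limma 3.58.1 in R 4.3.3 (lmFit, eBayes, with medium as the sole term) was fitted to all 15037 genes and 6 arrays, with no filter, and adjusted by Benjamini-Hochberg. Its use was tested on simulated data. The block took arrays of the same number as the same line in 2 media, which the labels do not state outright. Their deviations from the group means correlated at 0.32, -0.01 and 0.32 for the numbers 1, 2 and 3, and those of other numbers at -0.37 to 0.16.

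The members and lists were chosen with earlier results of these data known. The lists held other ligands and receptors (11 of 12 measured), processing and release (14 of 17), receptor signalling (24 of 28), induced genes (29 of 34) and cell type markers. Of the markers, 5 ciliated genes had a mean level of 4.51 to 4.77 over the arrays and 3 secretory genes one of 6.99 to 10.15. Named were all members, the called genes of each pathway list up to 8 (2 values where 0 were called) and 3 genes most like each of the 3 members with the largest differences. Further list genes named in the text were chosen after their values were seen. The alternatives were a replicate block, quantile normalization, median centring, a trended and robust variance, a filter on the dimmest 25% of genes, probe sets averaged per gene, and leaving out arrays.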

Additional observations from a re-analysis of the deposited data

How the results depend on the processing

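The directions of all 8 members held under every alternative run, except Il1b when EpiX array 3 (-0.0307) or both arrays of number 3 (-0.0498) were left out, its range being -0.0498 to 0.30. The difference of Il1r2 was only 0.0003 without BEGM array 3, and ran from there to 0.70 when arrays were left out. Il1b had no value without the dimmest 25% of genes, to which it belongs. Il1a and Il1rl1 stayed called in all 6 alternatives that kept the 6 arrays. With the replicate block, 2 receptor signalling genes were called higher and 1 lower and 11 induced genes lower, and it changed the call of no member (Il1a adjusted p = 0.00965, Il1rl1 0.00177). With median centring, 1 processing gene was called higher and 1 signalling gene lower. Leaving out 1 array, or both of a number, moved the counts: from 0 to 988 genes called higher and from 0 to 1101 lower, from 0 to 2 members higher and 0 to 3 lower, from 0 to 1 other ligands and receptors lower, from 0 to 2 signalling genes higher and 0 to 2 lower, and from 0 to 2 induced genes higher and 0 to 10 lower. Fewer arrays also leave the test fewer degrees of freedom. The shift of Il1b minus Il1r2 ran from -0.72 to 0.16, that of Il1b minus Il1rn from -1.75 to -0.50, those of Il1a from -6.12 to -4.52 (minus Il1rn) and from -4.93 to -3.54 (minus Il1r2), that of Il33 minus Il1rl1 from 1.50 to 3.12 and that of Il18 minus Il18bp from 0.81 to 2.68. Il1b and Il1r2 lay below the median of the background probe sets on all 6 arrays, and detection calls were not used here.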
